A study of Mus musculus with 20 samples.

Results

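The genes of the caveolae coat were followed in the abdominal aorta of wild type mice and mice labelled Rab22a KO, given angiotensin II (AngII) or saline. The set has 8 members, chosen by their place in the coat with earlier results of these data known. It holds the caveolins Cav1, Cav2 and Cav3, the cavins Cavin1, Cavin2, Cavin3 and Cavin4, and the ATPase gene Ehd2. They are 8 of the 42890 genes to which the deposited transcripts could be assigned. All 8 passed the filter on low values, which 15010 genes passed. The 20 libraries came from C57BL/6 mice, 5 in each of 4 groups. These were wild type mice and Rab22a KO mice, each genotype with a saline arm and an AngII arm, the hormone being given at 500 ng/kg/min for 14 days. Rab22a is a small GTPase of endosomes, and the series title ties its loss to AngII hypertension and to recycling of the AngII type 1 receptor. The labels do not say in which cells Rab22a was deleted, how the allele was made, or what age the mice were.

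Caveolae are flask-shaped pits of the plasma membrane that are abundant in smooth muscle cells, endothelial cells and adipocytes. Caveolins are inserted into the membrane and, together with cholesterol, form the base of the coat, and cavins bind it from the cytosol. EHD2 sits as a ring at the neck and holds the pit at the surface. Caveolae flatten when the membrane is stretched, and the AngII type 1 receptor and several other vascular receptors and channels have been placed in them.

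Levels are given as FPKM, reads scaled to transcript length and library total, summed over the annotated transcripts of a gene, so that levels of different genes can be compared. Positions are on mm10 with GENCODE M21 genes. Cav1 (ENSMUSG00000007655) lies at chr6:17306335-17341452, directly after Cav2 (ENSMUSG00000000058) at chr6:17281185-17289115, and Cav3 (ENSMUSG00000062694) lies on the same chromosome at chr6:112459505-112472872. Cavin1 (ENSMUSG00000004044) lies at chr11:100956733-100970887, Cavin2 (ENSMUSG00000045954) at chr1:51289126-51302960, Cavin3 (ENSMUSG00000037060) at chr7:105480083-105482300 and Cavin4 (ENSMUSG00000028348) at chr4:48663514-48673502. Ehd2 (ENSMUSG00000074364) lies at chr7:15946958-15967567. A difference is a difference of mean log2(FPKM + 1) from limma fitted over all 15010 genes, with its standard error (SE) and a Benjamini-Hochberg adjusted p over those genes, and a gene is called at an adjusted p under 0.05. The deposited values imply between 68747900 and 77391200 reads per library. Mean reads per library ran from 54790 for Cavin1 down to 385 for Cav3 and 323 for Cavin4, whose lowest library held 10 reads. The labels were checked on Rab22a: its main coding transcript averaged 5.90 ± 2.34 FPKM (SD, n = 5) in the wild type saline group and 5.96 ± 2.54 FPKM (SD, n = 5) in the wild type AngII group, and did not exceed 0.00563 FPKM in any library labelled KO. The sum over its transcripts was not lower in KO, because a second transcript, annotated as subject to nonsense-mediated decay, averaged 9.38 ± 1.33 FPKM in KO saline and 9.20 ± 0.603 FPKM in KO AngII (SD, n = 5). The tissue label was checked on smooth muscle and endothelial markers, and Myh11 and Acta2 of contractile smooth muscle lay between 126 and 401 and between 522 and 3128 FPKM. Skeletal muscle, adipocyte and lymphocyte markers were present too, at levels that differed widely between libraries. In such bulk tissue, fewer cells of a type and less RNA per cell cannot be told apart. Nothing says that mice with the same replicate number belong together, and p-values measure the spread between these mice.

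The promoters of Cav1 and Cav2 are shown because these neighbouring genes, both on the plus strand of chromosome 6, gave the highest caveolin levels and varied together between mice, and because the transcripts from the 2 start sites of Cav1 are compared between groups further on. Those of Cav3 and Cavin4 are shown because that pair varied together apart from the rest. Each sequence is the 250 bases before a start site in the RefSeq promoter table (GRCm38.p6), where 7 of the 8 members had an entry, with 9 start sites in all. Cavin3 had none. Capitals mark the GC box GGGCGG, the TATA box TATAAA and the E-box CANNTG, searched on both strands and with no overlaps between them in these sequences.
Cav1, first start site, chr6:17306085-17306334, plus strand: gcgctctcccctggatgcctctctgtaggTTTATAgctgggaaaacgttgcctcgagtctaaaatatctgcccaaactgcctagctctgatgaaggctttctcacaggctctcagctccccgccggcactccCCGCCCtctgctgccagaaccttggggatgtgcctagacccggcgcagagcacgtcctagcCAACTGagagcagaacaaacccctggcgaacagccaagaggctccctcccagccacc
Cav1, second start site, chr6:17307390-17307639, plus strand: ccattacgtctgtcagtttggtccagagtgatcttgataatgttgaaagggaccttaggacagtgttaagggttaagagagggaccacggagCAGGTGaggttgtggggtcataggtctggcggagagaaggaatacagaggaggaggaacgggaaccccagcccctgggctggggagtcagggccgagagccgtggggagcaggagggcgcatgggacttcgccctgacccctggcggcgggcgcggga
Cav2, chr6:17280935-17281184, plus strand: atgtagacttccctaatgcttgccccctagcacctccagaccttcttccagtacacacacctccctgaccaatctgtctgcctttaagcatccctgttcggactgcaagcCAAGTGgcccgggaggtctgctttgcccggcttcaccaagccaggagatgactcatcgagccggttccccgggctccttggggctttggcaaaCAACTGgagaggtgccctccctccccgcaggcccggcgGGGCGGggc
Cav3, chr6:112459255-112459504, plus strand: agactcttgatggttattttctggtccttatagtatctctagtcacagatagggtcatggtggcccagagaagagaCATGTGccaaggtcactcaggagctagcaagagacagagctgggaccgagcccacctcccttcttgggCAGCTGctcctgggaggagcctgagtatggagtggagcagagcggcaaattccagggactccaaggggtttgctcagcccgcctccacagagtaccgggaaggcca
Cavin4, chr4:48663264-48663513, plus strand: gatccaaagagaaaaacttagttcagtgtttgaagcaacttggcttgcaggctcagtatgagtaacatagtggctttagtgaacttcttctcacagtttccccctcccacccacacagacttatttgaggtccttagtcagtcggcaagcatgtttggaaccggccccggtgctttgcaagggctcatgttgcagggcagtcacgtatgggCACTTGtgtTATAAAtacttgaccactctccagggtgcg

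A GC box, the letters bound by SP family factors, occurred before the first Cav1 start, before Cav2 and before Ehd2 and Cavin1. It occurred in 32.7% of 32851 promoters of the same length in the table. It was not found before the second Cav1 start, which also held no TATA box. TATA box letters, present in 12.4% of promoters, occurred on the minus strand far ahead of the first Cav1 start and, on the plus strand and 30 bases ahead of the start site, before Cavin4. E-box letters are common, at 66.2% of promoters, and stood in 6 of the 9 member promoters: both of Cav1, and those of Cav2, Cav3, Cavin4 and Ehd2. The CArG box, bound by serum response factor, and the MEF2 box were searched by their usual definitions and occurred in 0 of the 9, against 1.47% and 2.92% of all promoters. The share of G and C was 62.0% before Cav2, 59.6% and 60.8% before the Cav1 starts, 56.0% before Cav3 and 48.8% before Cavin4, against a median of 52.4%. These matches describe letters in a window and were not tested against the expression values.

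Among the coat genes, Cavin1, which gathers the other cavins on caveolin and without which caveolae are lost, had the highest level, at a mean of 211 FPKM over the 20 libraries. Cavin2, which binds phosphatidylserine and shapes the membrane, followed at 95.1 FPKM, and Ehd2 at 89.3 FPKM. Cavin2 exceeded Ehd2 in 12 of 20 libraries, so the order of this pair lay within the spread. Cav2 stood at 64.0 FPKM, Cavin3, the protein kinase C delta binding member, at 53.8 FPKM and Cav1, the caveolin that caveolae of non-muscle and smooth muscle cells require, at 48.7 FPKM. Cavin3 was above Cav1 in 10 of the 20 libraries, so these levels were not distinguished either. The muscle members came last, with Cav3 at 4.45 and Cavin4 at 2.10 FPKM. From the highest library to the lowest, Cavin2 spanned 1.66-fold, Cav1 1.71-fold, Ehd2 1.75-fold, Cav2 2.01-fold, Cavin1 2.43-fold, Cavin3 3.35-fold and Cav3 8.22-fold, whereas Cavin4 spanned 172-fold.

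The order of the group means within the middle of the set was not the same in wild type and KO. In both wild type groups Cavin3 had a higher mean than Cav2, and exceeded it in 4 of 5 libraries of each group. In both groups labelled KO the order read Cav2, then Cav1, then Cavin3. Cav1 exceeded Cavin3 in 4 of 5 KO libraries under saline and in 4 of 5 under AngII. The ratio of Cavin3 to Cav1 did not pass between genotypes (exact permutation test, adjusted p = 0.111 under saline and 0.0952 under AngII), and Cavin3 against Cav2 was not tested.

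**Figure D1:**
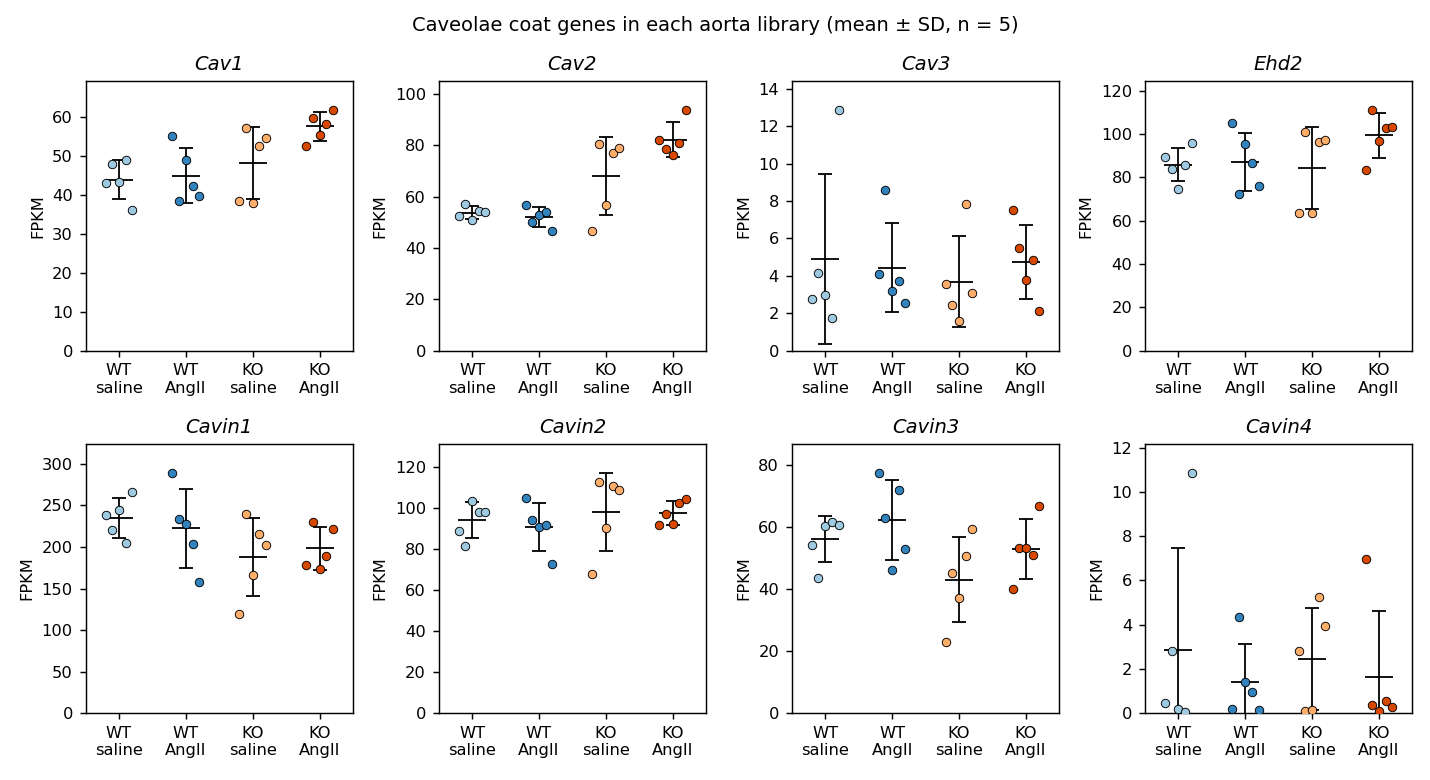
FPKM of each member (vertical axes, linear from 0) in every library of the 4 groups, with the mean and SD as bars (n = 5, lower bars cut at 0 for Cavin4). All 5 KO AngII libraries lie above all 5 wild type AngII libraries for Cav2, and Cavin4 ranges from 0.0631 to 10.9 FPKM.

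Cav2 was the 1 member called in any comparison. It encodes caveolin-2, which joins caveolin-1 in hetero-oligomers and depends on it to reach the cell surface. In wild type aortas Cav2 measured 52.5, 57.3, 50.7, 54.3 and 54.0 FPKM under saline and 56.6, 49.99, 52.7, 54.0 and 46.7 FPKM under AngII (replicates 1 to 5). In KO aortas it measured 46.7, 80.6, 56.8, 76.8 and 79.0 FPKM under saline and 81.9, 78.4, 76.1, 80.8 and 93.7 FPKM under AngII. All KO libraries under AngII were above every wild type library, while the KO saline group was split, with replicates 1 and 3 in or below the wild type range and the others at 76.8 or more.

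Under AngII, Cav2 was higher in KO than in wild type, 82.2 ± 6.82 against 52.0 ± 3.82 FPKM (SD, n = 5). The limma difference was 0.65 ± 0.13 (SE), with an adjusted p of 0.0273, and the groups did not overlap (exact permutation test, two-sided, p = 0.00794, the smallest that 5 libraries against 5 allow; adjusted p = 0.254 over 32 such tests). Of all genes, 1.37% lay higher in KO here without overlap. Cav2 ranked 44 of 15010 genes by p. In this comparison 1 of 8 members was called, and 1.83% of all genes. The call was lost when replicate 1, 2 or 4 of wild type AngII or replicate 1, 2, 3 or 5 of KO AngII was left out, with adjusted p between 0.0508 and 0.0893 and a difference between 0.60 and 0.68. It was also lost when only these 2 groups were fitted (adjusted p = 0.0598).

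Averaged over treatments, Cav2 was higher in KO by 0.48 ± 0.09 (SE; limma adjusted p = 0.00947). Here again 1 of 8 members was called, and 4.15% of all genes. This call held in each of the 20 fits that left out 1 library, with adjusted p between 0.00157 and 0.0226. Under saline the mean was 68.0 ± 15.3 FPKM in KO and 53.8 ± 2.43 FPKM in wild type (SD, n = 5), a difference of 0.30 ± 0.13 (SE) that did not pass (limma adjusted p = 0.625). No member was called under saline, where 0.0133% of all genes were. With KO saline replicates 1 and 3 left out together, a choice made after the data were seen, the saline difference was 0.54 and was called (limma adjusted p = 0.0272), in a fit that called 0.326% of all genes.

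Lymphocyte markers differed between the same libraries. The mean log2(FPKM + 1) of 6 B and plasma cell genes was 6.00 and 5.84 in KO saline replicates 1 and 3, the low libraries for Cav2, and 1.73, 2.22 and 0.91 in replicates 2, 4 and 5. In wild type libraries it lay between 3.73 and 6.03, and in KO AngII libraries between 1.04 and 5.28, and 6 of 6 of these genes had lower means in KO than in wild type under AngII. All 6 T and NK cell genes had lower means there too. Over the 20 libraries, with group means subtracted, Cav2 had r = -0.68 with the B and plasma cell level (rho = -0.61, permutation p = 0.0379 and 0.0297; adjusted p = 0.123 and 0.112 over 96 relations of members with marker lists), and r = -0.47 without the 2 farthest libraries, KO saline replicates 1 and 3. With the T and NK cell level it had r = -0.66 (rho = -0.62, permutation p = 0.0396 and 0.0212; adjusted p = 0.123 and 0.0937), and -0.66 without the 2 farthest. With the macrophage level it had r = -0.62 (rho = -0.69, permutation p = 0.0246 and 0.00695; adjusted p = 0.106 and 0.0536), and -0.64 without the 2 farthest. By these r, Cav2 tended to be lower in libraries of a group where these markers were higher, in relations that did not pass after adjustment. In KO AngII replicates 1 to 5, though, the B and plasma cell level was 1.31, 1.04, 4.27, 5.28 and 3.73. Cav2 there was 81.9, 78.4, 76.1, 80.8 and 93.7 FPKM. With both lymphocyte levels as covariates, added after the data were seen, the Cav2 difference under AngII was 0.47 (limma adjusted p = 0.0529) and the average 0.32 (adjusted p = 0.0650). Both calls were lost there, and with smooth muscle and endothelial levels as covariates both held, at 0.67 and 0.57 (limma adjusted p = 0.00507 and 0.00238). The median over all genes in the AngII comparison was -0.10, and -0.01 with the lymphocyte covariates.

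AngII itself called no member, in wild type or in KO, nor averaged over genotypes, and 0% of all genes were called in each of these 3 comparisons by limma. At an unadjusted p under 0.05, 458, 595 and 512 of the 15010 genes passed. In wild type the Cav2 difference was -0.05 ± 0.13 (SE), and in KO 0.30 ± 0.13 (SE; limma adjusted p = 0.991). The interaction, the difference between these responses, was 0.35 ± 0.18 (SE) for Cav2 with an unadjusted p of 0.0728 (limma adjusted p = 0.995). The interaction called 0% of all genes, while 501 passed unadjusted.

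Cav2 had 3 transcripts in the files, and ENSMUST00000000058, the main one, held between 98.4% and 98.8% of the Cav2 level in each group mean. The difference in Cav2 was therefore a difference in 1 transcript, which measured 81.0 ± 7.28 FPKM in KO and 51.1 ± 3.34 FPKM in wild type under AngII (SD, n = 5).

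Cav1 followed Cav2 in direction but was not called. It measured 43.1, 48.0, 43.5, 49.1 and 36.2 FPKM in wild type saline and 55.1, 38.5, 49.1, 42.3 and 39.8 FPKM in wild type AngII. In KO it measured 38.4, 57.4, 38.0, 52.7 and 54.8 FPKM under saline and 52.6, 59.8, 55.6, 58.4 and 61.9 FPKM under AngII. Under AngII only wild type replicate 1 reached into the KO range, and under saline the low KO libraries were again replicates 1 and 3. The difference under AngII was 0.36 ± 0.13 (SE; limma adjusted p = 0.167) and the average 0.24 ± 0.09 (SE; limma adjusted p = 0.159). Without KO saline replicates 1 and 3 the average difference of Cav1 was 0.34 and was called (limma adjusted p = 0.0102), in a fit that called 20.3% of all genes. Weighting the libraries by their spread also called Cav1, under AngII (0.37, limma adjusted p = 0.0269) and on average (0.31, limma adjusted p = 0.00707), in fits that called 12.7% and 26.9% of all genes. With the lymphocyte covariates the Cav1 difference was smaller, at 0.24 under AngII and 0.13 on average, and neither was called (limma adjusted p = 0.400 and 0.570).

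The transcripts of Cav1 were also compared singly. ENSMUST00000115453, of 2746 bases, begins at the second start site printed above, at position 17307640. Under AngII it measured 24.7, 31.0, 28.6, 26.6 and 23.5 FPKM in KO and 20.1, 12.53, 20.5, 18.7 and 15.9 FPKM in wild type. The groups did not overlap (exact permutation p = 0.00794; adjusted p = 0.0794 over 20 tests of Cav1 and Cav2 transcripts). ENSMUST00000115456, of 995 bases, begins 10 bases after the first start site and measured 22.3 ± 3.32 FPKM in KO and 21.8 ± 4.93 FPKM in wild type under AngII (SD, n = 5; exact permutation p = 0.865). ENSMUST00000007799, of 2522 bases, begins at the first start site itself. It measured 4.65 ± 1.74 FPKM in KO and 2.51 ± 1.55 FPKM in wild type under AngII (SD, n = 5; exact permutation p = 0.0794; adjusted p = 0.317). Under saline it measured 4.72 ± 1.49 FPKM in KO and 2.67 ± 1.15 FPKM in wild type (SD, n = 5; exact permutation p = 0.0159; adjusted p = 0.106). ENSMUST00000115453 held 46.8% ± 5.60 of the Cav1 level in KO and 38.9% ± 4.53 in wild type under AngII (SD, n = 5), which did not pass (exact permutation p = 0.0556; adjusted p = 0.737 over 16 tests). A longer transcript holds more reads per FPKM, and the Cav1 difference under AngII depended on the unit: it was 0.36 in FPKM and 0.51 from whole reads recovered from the FPKM values (voom adjusted p = 0.0731).

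**Figure D2:**
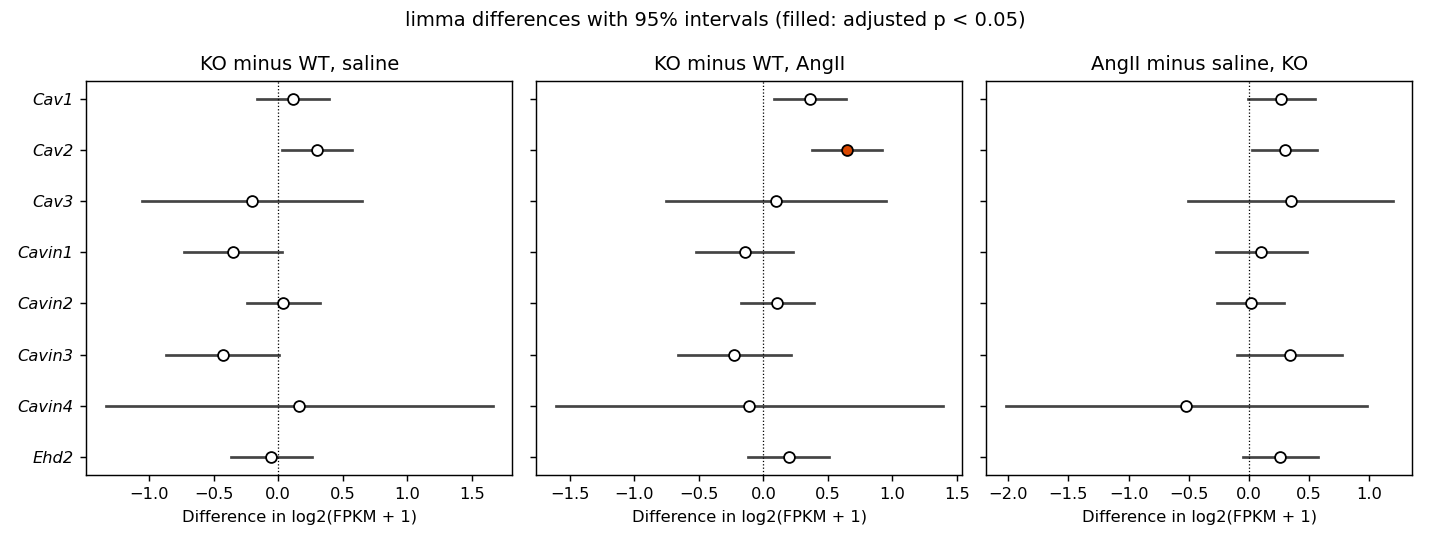
limma differences of log2(FPKM + 1) (horizontal axes, different ranges) for each member with 95% intervals, in 3 comparisons. Cav2 in KO against wild type under AngII, at 0.65, is the 1 filled point, and the intervals of Cav3 and Cavin4 are the widest.

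The cavins and Ehd2 showed no called difference. Cavin1 measured 238, 220.2, 245, 205 and 267 FPKM in wild type saline and 119, 239, 166, 216 and 202 FPKM in KO saline, with replicate 1 the lowest of all 20 libraries. The difference was -0.35 ± 0.18 (SE; limma adjusted p = 0.695). Under AngII the wild type libraries held 289, 234, 228, 203 and 158 FPKM, and the KO libraries 179, 229.6, 173, 189 and 221 FPKM, which overlapped widely, and the difference was -0.15 ± 0.18 (SE; limma adjusted p = 0.713). That second sign is not stable, since quantile normalization turned it to 0.16. Averaged over treatments Cavin1 was at -0.25 ± 0.13 (SE; limma adjusted p = 0.285), and at -0.50 with the lymphocyte covariates, where it was called (limma adjusted p = 0.0441) with 4.85% of all genes.

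Cavin3 measured 54.5, 43.8, 60.6, 61.8 and 60.8 FPKM in wild type saline and 23.2, 45.2, 37.3, 50.8 and 59.5 FPKM in KO saline. Under AngII the wild type libraries held 77.7, 63.2, 46.1, 72.0 and 53.2 FPKM, and the KO libraries 40.0, 53.5, 53.5, 51.3 and 67.1 FPKM. The groups overlapped under both treatments, with KO saline replicates 1 and 3 the lowest of all. The differences were -0.43 ± 0.21 under saline, -0.22 ± 0.21 under AngII and -0.33 ± 0.15 on average (SE), with limma adjusted p of 0.685, 0.611 and 0.223. Exons of Cavin3 overlap Gm45667, an annotated gene on the opposite strand listed at a mean of 0.213 FPKM, and without stated strand information reads from the overlap cannot be told apart.

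Cavin2 varied least of the cavins, with group means between 90.8 and 98.0 FPKM. Its average difference between genotypes was 0.07, with a 95% interval from -0.12 to 0.27 (limma adjusted p = 0.696). Ehd2 had group means of 86.0, 87.2, 84.4 and 99.5 FPKM in wild type saline, wild type AngII, KO saline and KO AngII. The difference between genotypes under AngII was 0.20 ± 0.15 (SE; limma adjusted p = 0.521), and that between AngII and saline in KO 0.26 ± 0.15 (SE; limma adjusted p = 0.991). KO saline replicates 1 and 3, at 63.4 and 63.8 FPKM, were the lowest Ehd2 libraries of all. The average genotype difference of Ehd2, 0.07 ± 0.11 (SE; limma adjusted p = 0.743), became 0.24 with smooth muscle and endothelial covariates and was called (limma adjusted p = 0.0474) with 17.8% of all genes.

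Because caveolins and cavins assemble into 1 coat, each member was also set against Cav1 within the same library, which cancels the scaling of that library. There were 28 such tests, 7 ratios in 4 comparisons. In wild type aortas Cavin1 stood at 5.45 ± 1.23 times Cav1 under saline and 4.94 ± 0.778 times under AngII, and in KO aortas at 3.88 ± 0.502 and 3.43 ± 0.286 times (SD, n = 5). Under AngII the log2 ratio differed by -0.52, KO minus wild type, and the groups did not overlap, the wild type ratios lying between 3.96 and 6.06 and the KO ratios between 3.11 and 3.84. Of the other 15009 genes tested, 12.5% had a ratio to Cav1 that was lower in KO without overlap, so lower ratios to Cav1 were common among all genes. The exact permutation p was 0.00794, with an adjusted p of 0.0444 over the 28 tests. Under saline the log2 difference was -0.47, which did not pass (adjusted p = 0.0952, exact permutation p = 0.0238).

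The ratios of Cavin2 and Ehd2 to Cav1 were also lower in KO under AngII, although their own levels were not, at 97.5 against 90.8 FPKM for Cavin2 and 99.5 against 87.2 FPKM for Ehd2, while the mean of Cav1 was higher in KO, at 57.6 FPKM, without being called. The Cavin2 ratio was 1.69 ± 0.0552 in KO and 2.04 ± 0.268 in wild type (SD, n = 5), which is -0.26 on the log2 scale. The Ehd2 ratio was 1.72 ± 0.104 in KO and 1.94 ± 0.0657 in wild type (SD, n = 5), which is -0.17. For both ratios the groups did not overlap (exact permutation p = 0.00794; adjusted p = 0.0444). Cavin2 relative to Cav1 was also lower under AngII than under saline within KO, by -0.26 on the log2 scale, with the same exact permutation p and adjusted p, where 0.839% of all genes had a lower ratio without overlap. This call held without any 1 of the KO saline libraries and was lost without any 1 of the KO AngII libraries (adjusted p up to 0.127). Groups that do not overlap still do not when a library is left out, and fewer libraries allow fewer arrangements. The loss therefore cannot tell whether the ratio depends on single mice. Cavin3 differed by more, with 1.41 ± 0.303 times Cav1 in wild type and 0.916 ± 0.119 times in KO (SD, n = 5), but wild type replicate 3 lay inside the KO range and the log2 difference of -0.60 did not pass (exact permutation p = 0.0238; adjusted p = 0.0952).

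Cav2 was the member whose ratio to Cav1 was higher in KO. It stood at 1.17 ± 0.120 in wild type and 1.43 ± 0.104 in KO under AngII (SD, n = 5), higher by 0.29 on the log2 scale with no overlap (exact permutation p = 0.00794; adjusted p = 0.0444). Of all genes, 0.107% had a higher ratio without overlap there. From recovered reads that difference was 0.15 and did not pass (exact permutation p = 0.206; adjusted p = 0.519). The differences of Cavin1, Cavin2 and Ehd2 were -0.66, -0.40 and -0.32 from recovered reads, still without overlap (exact permutation p = 0.00794) but with an adjusted p of 0.0741. All of these calls lie at the smallest p that 5 against 5 allows. Leaving out any 1 AngII library took the adjusted p of all 4 KO against wild type ratios to between 0.0556 and 0.127, so that no call was kept. The groups still did not overlap in these fits. Fewer libraries allow fewer arrangements, so this loss cannot tell whether the ratios depend on single mice. The values then lay between 0.25 and 0.33 for Cav2, -0.59 and -0.44 for Cavin1, -0.30 and -0.19 for Cavin2, and -0.20 and -0.14 for Ehd2.

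**Figure D3:**
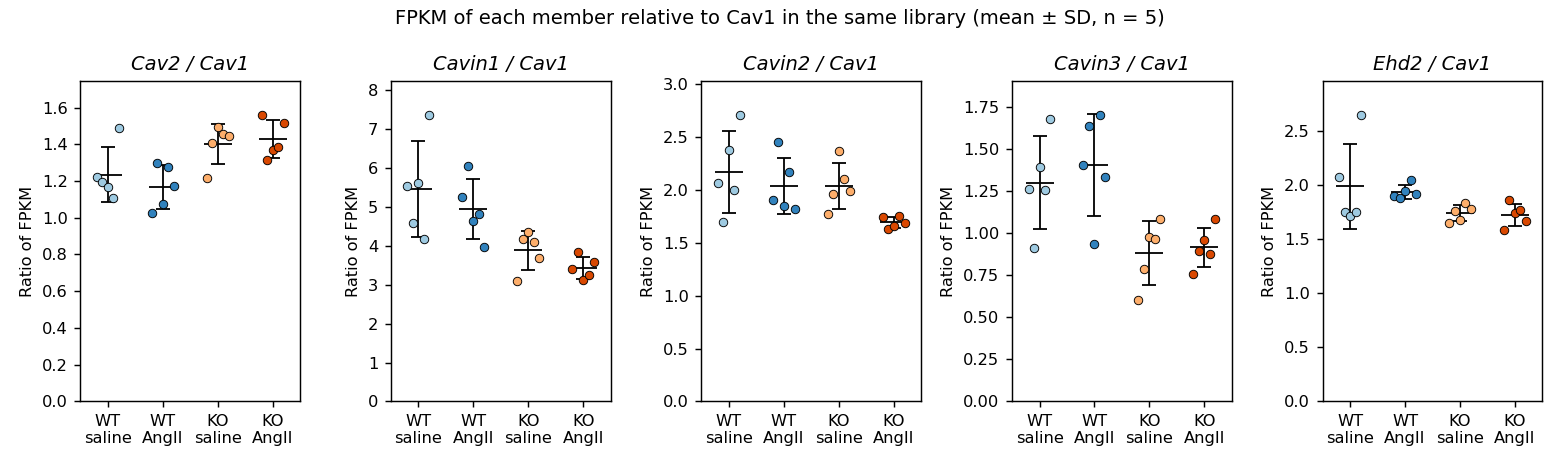
FPKM of 5 members divided by that of Cav1 in the same library (vertical axes, linear from 0), with the mean and SD of each group (n = 5). Under AngII the KO ratios of Cavin1, between 3.11 and 3.84, all lie below the wild type ratios, and those of Cav2 all lie above.

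Within groups, the 6 widely expressed members varied together from mouse to mouse. Correlations were computed on log2(FPKM + 1) after subtracting each group mean, over 20 libraries, with p from 100000 permutations within groups, for 28 pairs of members. Of the 15 pairs among Cav1, Cav2, Ehd2, Cavin1, Cavin2 and Cavin3, 13 passed an adjusted p of 0.05, with r between 0.50 and 0.88 over the 15. The share of pairs of other genes that pass was not computed, so this count is not shown to be particular to the coat. Genes outside it reached higher r, such as Emc7 with Cav2 (0.93) and Coq10b with Cavin1 (0.93). Cavin1 and Cavin2 had r = 0.88 (Spearman rho = 0.77, permutation p = 2.6e-04 and 0.00128; adjusted p = 0.00364 and 0.00896), and 0.73 without the 2 libraries farthest from the median. Cav1 and Cav2 had r = 0.77 (Spearman rho = 0.78, permutation p = 0.00147 and 0.00239; adjusted p = 0.0103 and 0.0134), and 0.69 without KO saline replicates 1 and 3. Cav1 with Cavin1 and Cav1 with Cavin3 were the pairs that did not pass (adjusted p = 0.0509 and 0.141). Without the 2 farthest libraries of each pair, r over the 15 pairs lay between 0.33 and 0.75. Of the 12 pairs of Cav3 or Cavin4 with these members, 0 passed, with r between -0.28 and 0.25. Cav2 and Cavin1 show how the group means enter: their r was 0.77 within groups and 0.09 when the group means were kept, since Cav2 had the higher mean in KO and Cavin1 the lower.

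**Figure D4:**
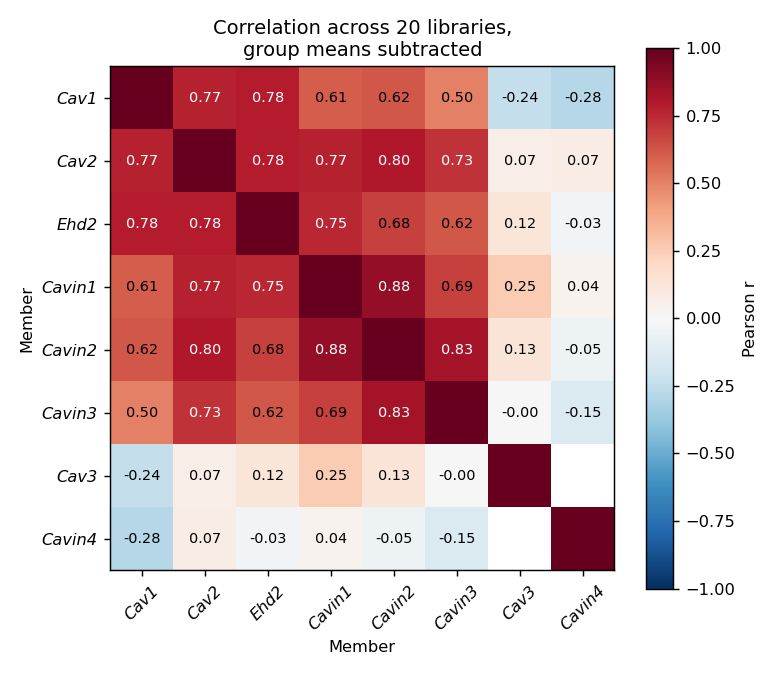
Pearson r between members (both axes) over 20 libraries after subtracting group means, with colour running from -1 to 1. Cav1, Cav2, Ehd2 and the first 3 cavins form a block with r of 0.50 or more, and Cav3 and Cavin4 stand apart from it, with r to its members between -0.28 and 0.25. The cells for Cav3 with Cavin4 are blank because those libraries form clusters.

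Marker levels moved with most of the members. Of 96 relations between 8 members and 12 marker lists, smooth muscle markers gave r of 0.84 with Cavin1, 0.83 with Cavin3, 0.81 with Cavin2, 0.70 with Ehd2 and 0.67 with Cav2, with permutation p from 1.3e-04 to 0.00536 (adjusted p from 0.00512 to 0.0475). Spearman rho for these was 0.79, 0.76, 0.78, 0.70 and 0.55, and r without the 2 farthest libraries was 0.72, 0.74, 0.68, 0.56 and 0.47. The rank relation of Cav2 did not pass (adjusted p = 0.112). Cav1 did not pass with smooth muscle markers (r = 0.48, rho = 0.44, permutation p = 0.0781 and 0.0970; adjusted p = 0.183 and 0.212), and had r = 0.19 without the 2 farthest. Cavin1 went against B and plasma cell markers (r = -0.65, rho = -0.67, permutation p = 0.00544 and 0.00601; adjusted p = 0.0475 and 0.0525), with -0.52 when KO saline replicates 1 and 3 were left out as the farthest. It went with fibroblast markers (r = 0.72, rho = 0.62, permutation p = 0.00222 and 0.00555; adjusted p = 0.0304 and 0.0525), and 0.54 without the 2 farthest. Cavin2 also varied with white adipocyte markers (r = 0.68, rho = 0.71, permutation p = 6.4e-04 and 0.00128; adjusted p = 0.0102 and 0.0205), and 0.60 without the 2 farthest libraries. Smooth muscle levels were 6.63 ± 0.25 in wild type saline, 6.67 ± 0.40 in wild type AngII, 6.22 ± 0.45 in KO saline and 6.63 ± 0.29 in KO AngII (SD, n = 5, mean log2(FPKM + 1) of 10 genes). KO saline replicate 1 was the lowest at 5.47. Their part in the differences between groups was not tested beyond the covariate fits given above.

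The genes most like each member by r over the same 20 libraries, among 13544 genes, were named for the closest 3. For Cav1 these were Ptms (r = 0.82) and, with the coat itself, Ehd2 (0.78) and Cav2 (0.77). Cav2 was closest to Emc7 (0.93), Sgce (0.91) and Prox2 (0.89), and Cavin1 to Coq10b (0.93), Sspn (0.92) and Smad6 (0.92). Sgce, the epsilon-sarcoglycan of the dystrophin complex, was also the closest to Cavin2 (0.90), before Rbms2 (0.90) and Bmp6 (0.89). Cavin3 was closest to Ppp1r14a (0.93), an inhibitor of smooth muscle myosin phosphatase, followed by Fkbp9 (0.90) and Cpxm2 (0.88). Ehd2 was closest to the amine oxidase Aoc3 (0.87), the basement membrane collagen Col4a2 (0.85) and Wscd2 (0.85). These r are descriptions over libraries that share their tissue composition.

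Cav3 encodes the caveolin of striated muscle, and Cavin4 the muscle-restricted cavin. No difference in either was called. The average difference between genotypes was -0.05 for Cav3, with a 95% interval from -0.66 to 0.55, and 0.03 for Cavin4, with an interval from -1.03 to 1.09 (limma adjusted p = 0.940 and 0.984), intervals that do not exclude sizeable differences in either direction. The sign of both depended on single libraries. In wild type saline Cavin4 measured 0.465, 2.82, 0.185, 0.0631 and 10.9 FPKM, and in KO AngII 6.99, 0.363, 0.117, 0.556 and 0.286 FPKM.

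Their levels moved with skeletal muscle markers in the same library. The mean log2(FPKM + 1) of 12 skeletal muscle genes split the libraries into 9 between 0.42 and 1.73 and 11 between 4.44 and 8.67, with libraries of every group on both sides. Cavin4 lay between 0.0631 and 0.363 FPKM in the former and between 0.465 and 10.9 FPKM in the latter, without overlap. Cav3 lay between 1.57 and 5.47 FPKM and between 2.75 and 12.9 FPKM, so that it was present also where skeletal muscle markers were low. The 5.47 FPKM was in KO AngII replicate 2, where the mean log2(FPKM + 1) of 6 cardiac muscle genes was 3.61. In every other library that level was 0.849 or less. The next highest Cav3 among the 9, in wild type AngII replicate 1, was 4.12 FPKM. The part of cardiac muscle in the Cav3 level was not tested. Because the libraries form such clusters, r is given within each. These r pool libraries of all groups without subtracting group means, so they and their p are not within-group values. Over the 11 libraries with the higher marker level, Cavin4 had r = 0.95 with the markers (rho = 0.89, permutation p = 2.0e-05 and 5.7e-04; adjusted p = 1.2e-04 over 6 relations), and 0.91 without the 2 farthest. Cav3 had r = 0.62 (rho = 0.49, permutation p = 0.0424 and 0.130; adjusted p = 0.0849), and 0.66 without the 2 farthest. Cav3 and Cavin4 had r = 0.77 with each other there (rho = 0.71, permutation p = 0.00609 and 0.0178; adjusted p = 0.0183), and 0.57 without the 2 farthest. Over the other 9 libraries, r was -0.0046 for Cav3 and 0.07 for Cavin4 with the markers (permutation p = 0.991 and 0.859), both with an adjusted p of 0.991. Cav3 with Cavin4 did not pass over these 9 libraries either (r = 0.56, rho = 0.47, permutation p = 0.117 and 0.214; adjusted p = 0.176). Cav3 also moved with mesothelium markers. Over all 20 libraries, with group means subtracted, it had r = 0.59 with them (rho = 0.68, permutation p = 0.00392 and 0.00249; adjusted p = 0.0418 and 0.0341 over 96 relations), and 0.72 without the 2 farthest. These libraries too were uneven in mesothelium level. It was 1.55 to 2.78 in wild type saline replicates 2 and 5, wild type AngII replicate 2 and KO AngII replicates 1 and 2, and 0.950 or less elsewhere. All of these but KO AngII replicate 2 had the higher skeletal muscle level, and no r within clusters was computed here. Cavin4 had r = 0.52 (rho = 0.55, permutation p = 0.0255 and 0.00726; adjusted p = 0.106 and 0.0536), and 0.73 without the 2 farthest. The part of mesothelium in either level was not tested. The genes most like Cavin4 over all 20 libraries were Klhl31, Asb16 and Sypl2, and those most like Cav3 were Tcea3, Fbxo40 and Dusp27.

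**Figure D5:**
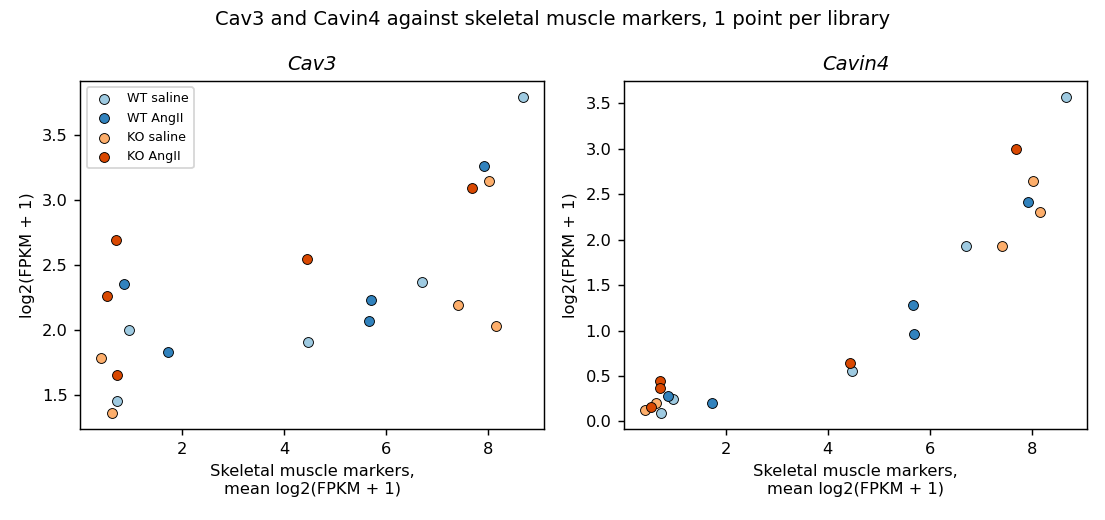
Cav3 and Cavin4 (vertical axes, log2(FPKM + 1)) against the mean level of 12 skeletal muscle markers (horizontal axes, same scale), 1 point per library, coloured by group. Cavin4 is near 0 in the 9 libraries on the left and rises with the markers in the 11 on the right, which include libraries of all 4 groups.

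Genes that work with the coat were read from 3 lists. Of 18 genes of caveolae assembly, neck and turnover, among them the pacsins, the other EHD proteins, dynamin and filamin A, 0 were called by limma in any of the 7 comparisons. Under AngII 3 of them had an unadjusted p under 0.05, all lower in KO, a share near the 17.3% of all genes that did, and the median was -0.02 against -0.10 for all genes. Plvap, which forms the diaphragm of endothelial caveolae, stood at 70.1 ± 28.2 FPKM in KO and 115 ± 14.3 FPKM in wild type under AngII (SD, n = 5; limma adjusted p = 0.185). Ehd1, an endosomal relative of Ehd2, stood at 50.6 ± 6.23 and 60.4 ± 4.94 FPKM (SD, n = 5; limma adjusted p = 0.257). Stx6, a syntaxin of the Golgi and endosomes, stood at 7.26 ± 1.97 and 9.76 ± 0.527 FPKM (SD, n = 5; limma adjusted p = 0.187). Cd36, a fatty acid receptor of caveolae-rich cells, had the highest level of the list, at a mean of 230.0 FPKM over the 20 libraries.

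Of 14 genes of membrane rafts and cholesterol supply, 0 were called by limma in any comparison, and the median under AngII was -0.12. Here 2 had an unadjusted p under 0.05, again near the 17.3% of all genes, namely Stard3, a cholesterol carrier of late endosomes, and Sgms1, a sphingomyelin synthase. The flotillins Flot1 and Flot2, scaffolds of rafts outside caveolae, had mean levels of 66.8 and 66.2 FPKM.

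Of 27 vascular receptors, channels and enzymes placed in caveolae, among them both AngII type 1 receptor genes, 25 were tested and 2 were called, both higher in KO, under AngII and on average, where 1.83% and 4.15% of all genes were called. Bmpr2, the type 2 receptor for bone morphogenetic proteins, measured 10.6 ± 1.60 FPKM in KO and 6.22 ± 1.55 FPKM in wild type under AngII (SD, n = 5), a difference of 0.69 ± 0.16 (SE; limma adjusted p = 0.0355). Atp2b4, a calcium pump of the plasma membrane, measured 19.8 ± 1.99 and 10.1 ± 3.18 FPKM (SD, n = 5), a difference of 0.95 ± 0.24 (SE; limma adjusted p = 0.0478). On average they differed by 0.73 ± 0.11 and 0.68 ± 0.17 (SE; limma adjusted p = 0.00368 and 0.0300). The average call of Bmpr2 held in each of 20 fits that left out 1 library, and its call under AngII in 3 of 10, those without wild type AngII replicate 3 or 5 or KO AngII replicate 4. The call of Atp2b4 under AngII held in 1 of 10 fits, that without wild type AngII replicate 3, and on average in 13 of 20. With the lymphocyte covariates Bmpr2 was at 0.64 and Atp2b4 at 0.74 under AngII, neither called (limma adjusted p = 0.0835 and 0.129). On average Atp2b4 was then at 0.51 and its call was lost too (limma adjusted p = 0.154), while Bmpr2 was at 0.69 and kept it (limma adjusted p = 0.0225). Both calls under AngII were also lost when only these 2 groups were fitted (limma adjusted p = 0.0862 and 0.0668) and with adipocyte and skeletal muscle covariates (limma adjusted p = 0.0604 and 0.0599). From recovered reads Atp2b4 was at 0.77 under AngII and 0.52 on average, neither called (voom with limma, adjusted p = 0.0958 and 0.0824). Its call under AngII was lost as well without the filter (limma adjusted p = 0.0662), without trend and robust estimation (limma adjusted p = 0.0527) and among protein-coding genes alone (limma adjusted p = 0.0509). Pdgfrb, the receptor for platelet-derived growth factor of mural cells, stood at 11.3 ± 3.22 and 6.89 ± 1.17 FPKM (SD, n = 5) under AngII and was not called (limma adjusted p = 0.0843). The median of the 25 genes under AngII was 0.21 against -0.10 for all genes, with 17 higher and 8 lower in KO, where 38.0% of all genes were higher. The list was chosen with earlier results of these data known, so its median and its calls are a description and not an independent test.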

How the data were processed

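Each library has its own table, deposited by the authors, of 126719 transcript models with values read here as FPKM. The unit is not stated and was inferred from the values. Per the submitters' processing notes the build was mm10 and limma was used. Aligner, counter and strand setting were not given in the sources used here. Per the labels' protocols, total RNA was depleted of ribosomal RNA. FPKM splits reads over overlapping transcript models, so the level of a single transcript is less certain than a gene sum.

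The 8 members and all lists were chosen with earlier results of these data known. With GENCODE M21, 109913 Ensembl transcripts matched, 169 did not, and 16637 models without a gene were left out. FPKM was summed per gene, and genes with at least 1 FPKM in 5 libraries were tested with limma 3.58.1 (R 4.3.3; trend and robust, pseudocount 1) in 1 fit over 20 libraries. Single values were compared by exact permutation in Python 3.11.15. Whole reads were recovered from FPKM times transcript length, 99.4% to 99.5% of low values lying within 0.1 read of a whole number. On simulated data for KO against wild type under saline (15010 genes), limma recovered 55% of genes changed by 1 and 88% of those changed by 2 (log2), and 8.33% of its calls were false. Named genes were the members, the 3 genes most like each, and, from each of 3 related lists, those with the 3 smallest p per comparison or the 3 highest levels, of which some are printed. Alternatives covered the pseudocount, filters, scaling, weights, covariates, recovered reads and leaving out libraries.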

Additional observations from a re-analysis of the deposited data

Results flagged for a closer look

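In 4 of 32 groups of 5 values (8 members in 4 groups), 1 library lay so far from the others that its gap to the nearest exceeded 0.71 of the range of the group, a limit that chance passes in about 1 of 20 groups. All 4 concern the muscle members. Wild type saline replicate 5 held 12.9 FPKM of Cav3 and 10.9 FPKM of Cavin4. Wild type AngII replicate 2 held 8.57 FPKM of Cav3, and KO AngII replicate 1 held 6.99 FPKM of Cavin4. These libraries had skeletal muscle marker levels of 8.67, 7.91 and 7.68, the highest of their groups, and the part of that tissue in these values was not tested.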

How the results depend on the processing

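Of 503 values recomputed under 21 alternatives other than leaving out 1 library, 454 kept their direction and their side of the threshold, 23 lost it, 8 gained it, 8 counts moved and 10 values reversed. Leaving out 1 library in turn gave 590 values, of which 494 kept both, 75 lost their call, 1 gained one, 7 counts moved and 13 values reversed. Values that were not called and stayed so are among those kept. The number of members called was 1 under saline with library weights and without KO saline replicates 1 and 3. Under AngII it was 2 with library weights, 0 when only the 2 groups were fitted, 0 with the lymphocyte covariates and 0 to 1 without single libraries. Averaged over treatments it was 2 with library weights, 2 without KO saline replicates 1 and 3 and 3 with smooth muscle and endothelial covariates (Cav1, Cav2 and Ehd2).

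From recovered reads the ratios to Cav1 were 0.15 for Cav2, -0.66 for Cavin1, -0.40 for Cavin2 and -0.32 for Ehd2 in KO against wild type under AngII, and -0.31 for Cavin2 in AngII against saline within KO. Without single libraries these ratios ranged from 0.25 to 0.33, -0.59 to -0.44, -0.30 to -0.19, -0.20 to -0.14 and -0.31 to -0.21, and that of Cavin1 under saline from -0.56 to -0.36. Cavin3 ranged from -0.73 to -0.52.

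Reversed values were Cavin1 under AngII with quantile normalization (0.16), and with the lymphocyte covariates the averages of Cavin2 (-0.10), Ehd2 (-0.048) and Cavin4 (-0.29). The average of Cav3 became 0.022 with quantile normalization, 0.0022 with scaling by trimmed means, 0.11 with library weights, 0.0196 with adipocyte and skeletal muscle covariates, 0.0558 without KO saline replicates 1 and 3, and 0.24 with smooth muscle and endothelial covariates. Without single libraries it ranged from -0.18 to 0.13 and that of Cavin4 from -0.23 to 0.31. The cause was not tested. The saline comparison called 2 genes, but 1195 with library weights, 49 without KO saline replicates 1 and 3, 20 without the filter, 10 with smooth muscle and endothelial covariates and 9 with lymphocyte covariates. The AngII comparison called 275 genes, but 1913 with library weights, 1130 with smooth muscle and endothelial covariates, 170 with adipocyte and skeletal muscle covariates, 1 with only the 2 groups and 9 to 484 without single libraries. The average called 623, but 4039 with library weights, 2665 with smooth muscle and endothelial covariates, 1172 without the filter, 3042 without KO saline replicates 1 and 3 and 281 to 1007 without single libraries. The median of all genes under AngII was -0.10, and 0.02 with quantile normalization, which put Cav2 at 0.85.

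With replicate numbers as a block, Cav2 differed by 0.65 under AngII and 0.48 on average (limma adjusted p = 0.0493 and 0.0226), 70 genes were called under AngII, and the AngII calls of Bmpr2 and Atp2b4 were lost (adjusted p = 0.0587 and 0.0723). The labels do not tie the numbers together, libraries of the same number had a median correlation of -0.03, and 3 of 20 libraries correlated best with their own number. Reads limit Cavin4 and Cav3 most, and 5 mice a group limit every exact test.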
